A study of Homo sapiens with 38 samples.

Results

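The clustered protocadherin genes are the protein-coding genes whose symbols join PCDHA, PCDHAC, PCDHB, PCDHGA, PCDHGB or PCDHGC to a number. This rule took 53 genes of the 58425 that the files hold, namely 15 of the alpha cluster, 16 of the beta cluster and 22 of the gamma cluster. All lie on the plus strand of human chromosome 5, from base 140786136 to base 141512977 of GRCh38, and 126 of their transcripts were quantified. RNA was sequenced from HCT116, a human colorectal carcinoma line, as wild type and as 4 knockout lines lacking AGO1, AGO2, AGO1/2 or AGO1/2/3, the Argonaute proteins that carry small RNAs. Nuclear and cytoplasmic fractions were taken from each line, with 3 libraries for each of the 10 combinations. No other treatment was given to the RNA-seq cultures, and each genotype was 1 line, obtained as a CRISPR-edited line for the knockouts. The replicate number is the passage, which ran from 27 to 29 in the wild type and from 6 to 14 in the knockout lines, so clone, passage and genotype cannot be told apart. The p-values therefore measure the spread between passages of single lines.

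Clustered protocadherins are cell surface adhesion proteins best known from neurons, where each cell uses its own small set of them. In the alpha and gamma clusters, each gene has its own promoter and its own large first exon, which codes for the extracellular cadherin repeats, the membrane span and part of the intracellular domain. That first exon is spliced to a set of short constant exons at the end of the cluster, which code for the shared intracellular end. Beta genes are single-exon genes with no constant part. Binding of CTCF and cohesin at the promoters, and DNA methylation there, are known to govern which promoters of the clusters are used. The genes PCDHAC1, PCDHAC2, PCDHGC3, PCDHGC4 and PCDHGC5 are called C-type and are placed last in their clusters.

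Most promoters of the clusters share a short conserved element with the core CGCT, and its surroundings differ between the clusters. The stretches shown are those of the members whose levels the results turn on, with the beta members PCDHB2, PCDHB8 and PCDHB15 for comparison. Each is RefSeq sequence (GRCh38.p14) that begins 100 bases before the annotated start and ends before the gene's start in both RefSeq and GENCODE, printed from 5′ to 3′, with CGCT and the longer beta form GTGGCGCT in capitals.
PCDHAC2 (chr5:140966376-140966469, plus strand): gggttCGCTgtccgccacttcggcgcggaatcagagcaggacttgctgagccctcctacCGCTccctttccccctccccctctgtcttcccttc
PCDHB2 (chr5:141094515-141094605, plus strand): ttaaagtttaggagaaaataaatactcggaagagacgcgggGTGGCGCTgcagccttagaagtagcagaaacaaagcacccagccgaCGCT
PCDHB8 (chr5:141177690-141177789, plus strand): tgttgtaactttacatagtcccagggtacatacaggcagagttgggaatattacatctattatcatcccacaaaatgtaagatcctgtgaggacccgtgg
PCDHB9 (chr5:141187061-141187126, plus strand): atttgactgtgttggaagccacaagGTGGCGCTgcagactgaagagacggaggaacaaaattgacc
PCDHB13 (chr5:141213819-141213918, plus strand): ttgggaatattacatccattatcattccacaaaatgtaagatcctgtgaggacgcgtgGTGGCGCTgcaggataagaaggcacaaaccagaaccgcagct
PCDHB14 (chr5:141223243-141223342, plus strand): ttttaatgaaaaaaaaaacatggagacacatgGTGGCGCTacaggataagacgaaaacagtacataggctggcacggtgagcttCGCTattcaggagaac
PCDHB15 (chr5:141245295-141245394, plus strand): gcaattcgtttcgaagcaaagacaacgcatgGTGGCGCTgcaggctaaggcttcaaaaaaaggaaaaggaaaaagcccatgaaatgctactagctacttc
PCDHGA9 (chr5:141402678-141402777, plus strand): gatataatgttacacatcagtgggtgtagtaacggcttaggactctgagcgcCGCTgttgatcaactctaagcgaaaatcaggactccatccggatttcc
PCDHGA10 (chr5:141412887-141412986, plus strand): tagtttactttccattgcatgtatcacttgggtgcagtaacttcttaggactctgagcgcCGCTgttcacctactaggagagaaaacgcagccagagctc
PCDHGB7 (chr5:141417577-141417644, plus strand): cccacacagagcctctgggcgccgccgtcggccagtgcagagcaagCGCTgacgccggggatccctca
The 4 letters CGCT alone are common. In windows from 250 bases before to 50 bases after the start, CGCT or its reverse complement AGCG stood in 46 of the 47 members that have a window and in 71.9% of all 27305 genes with one. On the gene's strand and with its first base between 95 and 11 bases before the start, CGCT stood in 44 of the 47 members and in 25.3% of all genes. The edges of that range are positions of members themselves, PCDHAC2 and PCDHGA1 at 95 and PCDHB5 at 11 bases. The high share of members thus follows from the range and is no test against all genes. The longer run GTGGCGCT (reverse complement AGCGCCAC), which contains CGCT, stood in 13 of the 14 beta windows, in no alpha or gamma window and in 1.38% of all genes. In PCDHB8 its copy reaches past the stretch shown. In the gamma cluster, GCCGCTGT (reverse complement ACAGCGGC) stood in 11 windows and in 1.98% of all genes, PCDHGA9 and PCDHGA10 among them. GTCGCTGT (reverse complement ACAGCGAC) stood in 5 alpha and 6 gamma windows and in 0.791% of all genes. The longer runs were picked because many member windows hold them, so their shares beside those of all genes are a description and no test. These are matches of letters, and no binding or methylation at the promoters was measured here.

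The libraries held 20431557 to 54097984 estimated reads in nuclei and 39476205 to 79731793 in cytoplasm, of which 909 to 3180 came from the clustered protocadherin genes. Wild-type passage 29 stood apart from passages 27 and 28 in both fractions, and calls that end without it are named with their values. By the mean chi-square of read counts per gene, wild-type passages 27 and 29 gave 48.03 in nuclei and 85.49 in cytoplasm. Passages 10 and 11 of the AGO1/2 knockout were uneven too, at 45.94 in nuclei and 140.22 in cytoplasm. The RNA of AGO1 was lower in each line lacking AGO1, with nuclear log2 fold changes of -1.25 in the AGO1 knockout, -1.9 in the double AGO1/2 knockout and -1.7 in the triple knockout. AGO2 RNA was lower in the AGO2 knockout, with log2 fold changes of -0.47 in nuclei and -0.67 in cytoplasm, but in the AGO1/2 knockout it differed by -0.18 in nuclei (adjusted p = 0.0536) and was 0.31 higher in cytoplasm. AGO3 RNA in the AGO1/2/3 knockout had a log2 fold change of -0.30 in nuclei and of 0.34 in cytoplasm. Levels of these RNAs do not show loss of a protein, and the lines are named by their labels. All 6 colon epithelial markers reached 1 TPM in every group except the cytoplasm of the AGO1/2 knockout, where 5 did, and the markers of immune cells and of endothelium summed to at most 0.213 and 0.182 TPM. Of the 5 fibroblast markers COL1A1 alone passed 1 TPM, and DCN was at 0 in every library.

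A few clustered protocadherins held most of the RNA of their clusters. TPM, the level of a transcript relative to its length and to all transcripts of the library, was used to compare genes. Summed over all 53 members, the level was 7.03 to 12.45 TPM in nuclear libraries and 2.33 to 4.35 TPM in cytoplasmic ones. No library held 10 estimated reads of 21 members, which were 10 of 15 alpha genes, 10 of 16 beta genes and 1 of 22 gamma genes, PCDHGA2. Counted as expressed at 0.5 TPM or more in all 3 libraries, wild-type nuclei held 5 members, PCDHAC1, PCDHAC2, PCDHGA10, PCDHGB7 and PCDHGA12. Nuclei of the AGO1 and AGO2 knockouts held 3 each, PCDHAC2, PCDHGA10 and PCDHGB7. Nuclei of the double knockout and of the triple one held these and PCDHGA11, 4 each. Cytoplasm of all 5 lines held 2, PCDHAC2 and PCDHGA10. These 2 were therefore shared by all 10 groups, and 6 members reached the level in any group. The beta cluster had none. The number depends on the level chosen, since at 0.1 TPM wild-type nuclei held 13 members.

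**Figure D1:**
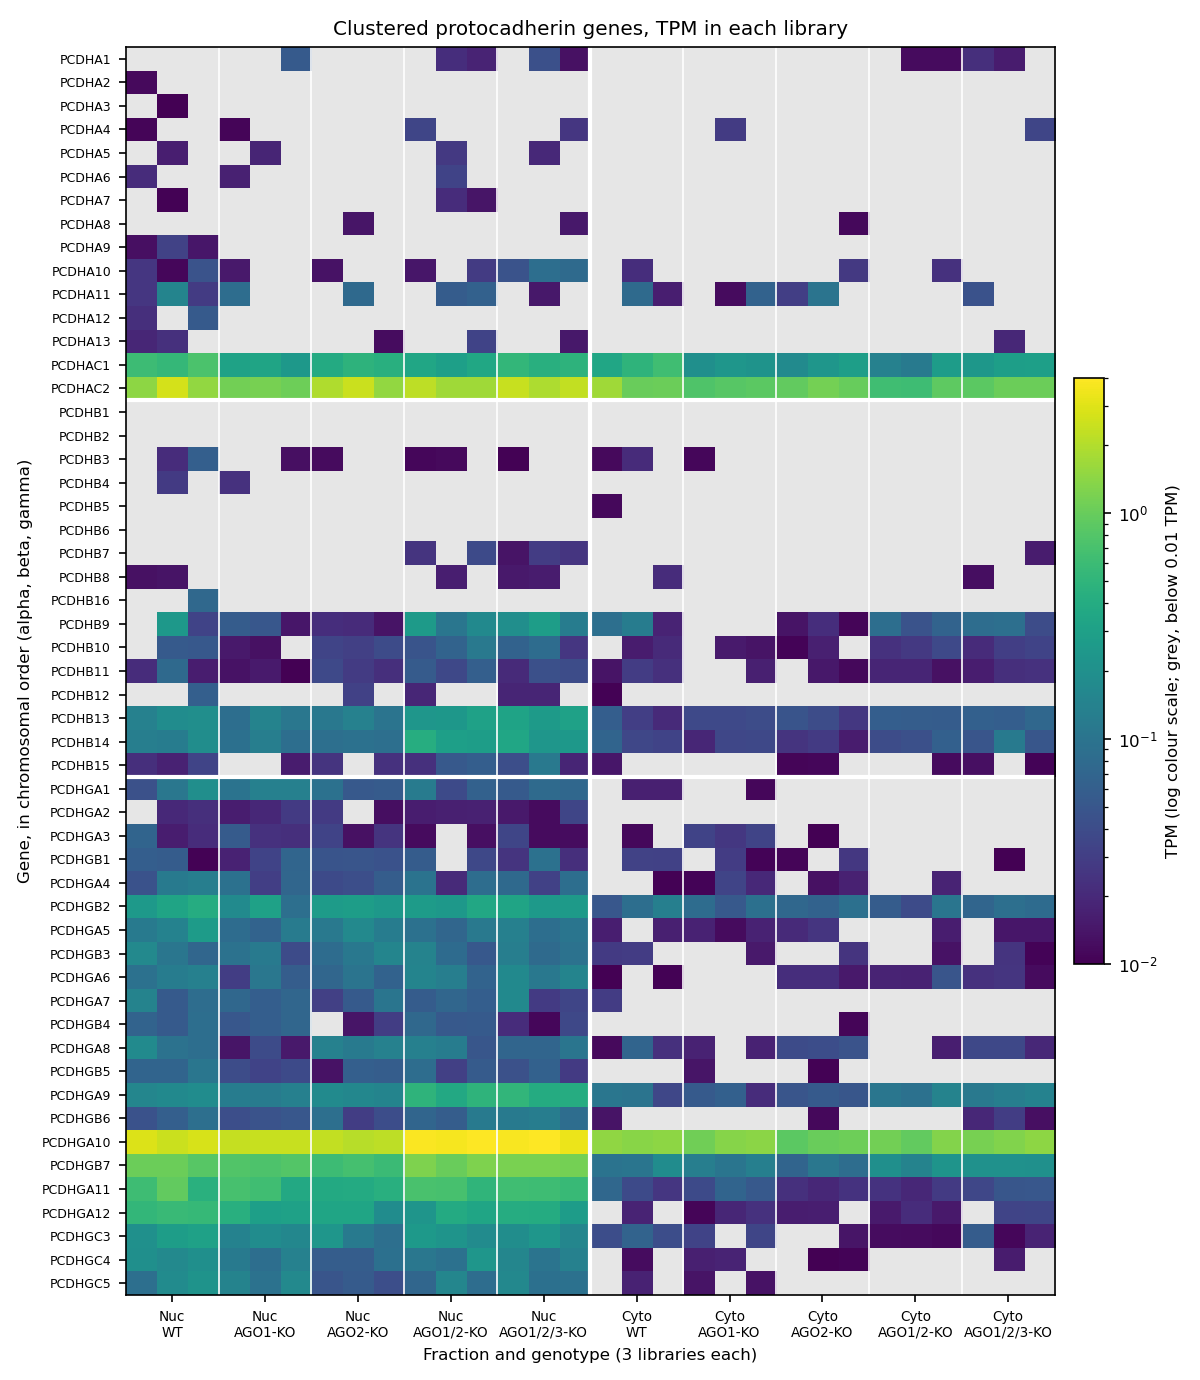
Level of each clustered protocadherin gene (rows, in genomic order) in each of the 30 libraries (columns, by fraction, genotype and passage), as TPM on a colour scale. PCDHAC2 and PCDHGA10 are the members at 0.5 TPM or more in all 10 groups, and most alpha and beta rows are near 0.

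PCDHGA10, a gamma member of the A type, had the highest level of the gamma cluster in all 10 groups. In wild-type nuclei it stood at 2.92, 2.47 and 2.81 TPM in passages 27, 28 and 29, and in wild-type cytoplasm at 1.47, 1.38 and 1.43 TPM. Nuclei of the AGO1/2 (double) knockout gave 3.83, 3.71 and 3.97 TPM in passages 9, 10 and 11, and those of the AGO1/2/3 (triple) knockout 3.73, 3.99 and 3.39 TPM in passages 11, 12 and 14. All 6 of these libraries were above the 3 of the wild type. Nuclei of the AGO1 and AGO2 knockouts, at 2.39 ± 0.0338 and 2.19 ± 0.108 TPM (SD, n = 3), were below all 3 wild-type libraries. PCDHGA10 made up 34.3 to 49.5% of the gamma cluster's summed TPM in nuclear libraries (median 44.4%) and 64.7 to 74.0% in cytoplasmic ones (median 69.7%), so that the ranges of the fractions did not overlap. PCDHGB7, a gamma member of the B type whose gene starts right after that of PCDHGA10, took second place in all 10 groups, with 11.6 to 15.6% of the cluster in nuclei and 4.94 to 12.3% in cytoplasm.

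PCDHAC2 led the alpha cluster in every group and PCDHAC1 followed. PCDHAC2 held 63.0 to 83.6% of the alpha cluster's summed TPM in nuclear libraries and 60.9 to 82.7% in cytoplasmic ones. In wild-type nuclei PCDHAC2 stood at 1.44, 2.70 and 1.52 TPM. The high value of passage 28 includes 0.977 TPM of a short transcript of 550 bases with 2 exons, which stood at 0 in passages 27 and 29, while the estimated reads of the gene were 214.2, 223.2 and 231.6. Reads and TPM of this gene thus need not move together. PCDHAC1 took 13.2 to 30.4% of the alpha cluster in nuclei and 15.1 to 37.0% in cytoplasm. Its level in wild-type nuclei was 0.606, 0.543 and 0.734 TPM, against 0.331 ± 0.0338 TPM in the AGO1/2 knockout, and those 2 groups did not overlap.

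The beta cluster was low throughout, with 0.622 ± 0.229 TPM summed over 16 genes in wild-type nuclei and 0.240 ± 0.0740 TPM in wild-type cytoplasm. PCDHB13 and PCDHB14, neighbours near the end of the cluster, led it in nuclei, where PCDHB13 made up 21.1 to 40.8% and PCDHB14 15.9 to 38.1% of the summed TPM. PCDHB9 ranged from 0 to 31.3% there. In wild-type nuclei PCDHB9 was at 0, 0.242 and 0.0336 TPM, which rest on 0, 6.0 and 4.4 estimated reads. In cytoplasm PCDHB9 had the highest mean in the wild type, the double and the triple knockout, but at 2.0, 8.0 and 5.0 estimated reads in the wild type its rank is within counting error.

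Nuclear and cytoplasmic RNA of the same line were then compared with edgeR's quasi-likelihood test over 20104 genes with Benjamini-Hochberg adjustment. It shows in which fraction the reads assigned to each member were relatively more abundant. These fold changes are on CPM, counts set relative to the library's total and scaled between libraries by TMM, so they are relative to the other genes of each fraction and say nothing of the amount of RNA per cell. Alpha genes run to a common end, as do gamma genes, so first exons of downstream members lie within the span of upstream ones. Nuclear reads in a member's first exon thus need not come from its own promoter. This limit holds for the levels above too, and its part was not tested. Of the 53 members 30 passed the filter on low counts, 3 alpha, 6 beta and 21 gamma genes. Members that pass only through the fraction where they are high had to differ, so the counts that follow describe the members tested. In the wild type 19 of 30 members were called at an adjusted p of 0.05 or less, 18 of them higher in nuclei, where 76.8% of all genes tested were called and 39.6% were called higher in nuclei. In the AGO1 knockout 18 were called, 17 higher in nuclei, against 74.5% and 40.0% of all genes. In the AGO2 knockout 19 were called, all higher in nuclei, against 73.4% and 39.8%. In the AGO1/2 knockout 22 were called, all higher in nuclei, against 68.6% and 36.9%. In the AGO1/2/3 knockout 24 were called, all higher in nuclei, against 70.2% and 36.1%. The share of members called in either direction was near the background, and the calls were nearly all of 1 direction. The median log2 fold change over the members tested was 1.63, 1.75, 1.48, 1.63 and 1.88 in this order of lines, against 0.04, 0.09, 0.09, 0.09 and 0.03 over all genes, also with members at 0 reads in cytoplasm set at their bound.

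Of all genes, 36.1 to 40.0% were called higher in nuclei in a single line. The share of all genes called so in every line was not counted. In all 5 lines, 15 of the 30 members tested rose in nuclei relative to cytoplasm. These were the beta genes PCDHB13 and PCDHB14 and the gamma genes PCDHGA1, PCDHGA5, PCDHGA6, PCDHGA7, PCDHGB5, PCDHGB6, PCDHGA10, PCDHGB7, PCDHGA11, PCDHGA12, PCDHGC3, PCDHGC4 and PCDHGC5. PCDHGA10 and PCDHAC2, the members expressed in all 10 groups, gave small ratios, as did PCDHAC1. PCDHGB7, expressed in nuclei of all 5 lines, ran from 1.28 to 2.04 in log2 fold change. PCDHGA10 in the wild type was at 13.7, 11.7 and 14.2 CPM in nuclei and at 10.0, 9.74 and 10.7 CPM in cytoplasm, which did not overlap (log2 fold change 0.37, SE 0.115, adjusted p = 0.00478). In the AGO1/2/3 knockout PCDHGA10 was at 19.7, 21.9 and 18.2 CPM in nuclei and at 10.1, 10.8 and 12.7 CPM in cytoplasm (0.83, SE 0.109, adjusted p = 2.33e-07). PCDHAC2 was slightly lower in nuclei of the wild type, at 6.58, 8.19 and 8.74 CPM against 9.11, 9.50 and 10.3 CPM, and its log2 fold change over the 5 lines ran from -0.31 to 0.09. It passed the test as lower in nuclei in the wild type and the AGO1 knockout alone, and a difference between the lines was tested only against the wild type. PCDHAC1, with log2 fold changes from -0.14 to 0.44, passed it in no line.

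The gamma members downstream of PCDHGB7 showed larger ratios. PCDHGA12 in the wild type was at 1.5 ± 0.105 CPM in nuclei and 0.0624 ± 0.0605 CPM in cytoplasm (log2 fold change 4.52, SE 0.611, adjusted p = 2.7e-07), and its log2 fold change over the lines ran from 2.28 to 4.52. PCDHGA11 ran from 2.44 to 3.53 and PCDHGC5, the last gene of the cluster, from 3.29 to 4.37. PCDHGB2, far upstream at 53.0 kb before the start of PCDHGA10, ran from 0.42 to 0.69 and passed the test in no line. Upstream and downstream members were both among those with large ratios. PCDHGC4 gave 4.14 (SE 0.657, adjusted p = 3.2e-06) in the wild type. For members whose cytoplasmic libraries held no read, only a bound can be given, with 3 reads over the group taken as the floor. PCDHGB5 was at least 8.23-fold higher in nuclei of the wild type and at least 12.1-fold in the AGO1/2/3 knockout, and PCDHGB4 at least 17.7-fold in the double and 8.08-fold in the triple knockout. PCDHGB4 in the wild type had 30 nuclear and 3 cytoplasmic reads, a ratio of 12.8 with a 95% counting interval of 3.99 to 65.7.

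The other members with the largest ratios in a line were called from few cytoplasmic reads. In the AGO1 knockout these were PCDHGB4 (3.95, adjusted p = 5.87e-05), PCDHGB3 (3.49, adjusted p = 0.000336) and PCDHGA7 (3.47, adjusted p = 0.0014), with cytoplasmic means of 0.0218, 0.0320 and 0.0258 CPM. In the AGO2 knockout PCDHGA7 gave 3.72, PCDHGA11 3.53 and PCDHGC3 3.42 (adjusted p = 0.00095, 3.7e-10 and 7.51e-06). The AGO1/2 knockout gave 3.91 for PCDHGB3 and 3.85 for PCDHGC5 (adjusted p = 8.66e-05 and 1.17e-05). None of these calls ended when any 1 library was left out.

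**Figure D2:**
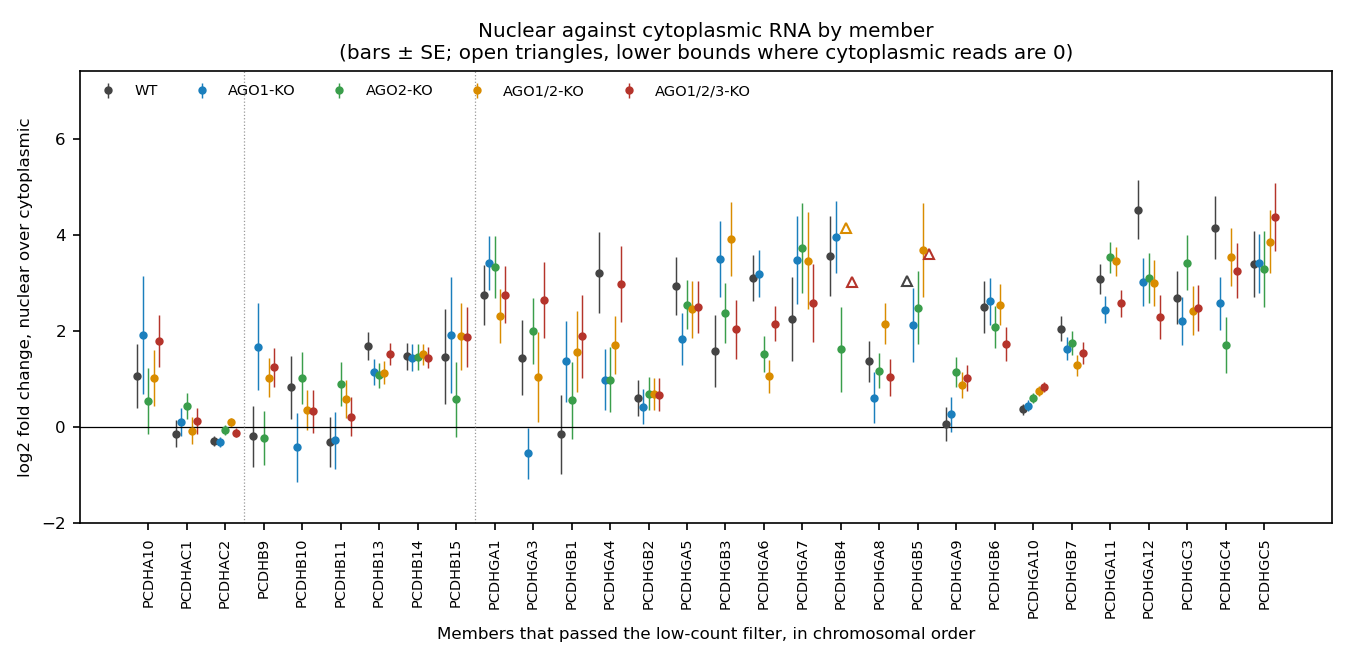
Log2 fold change of nuclear over cytoplasmic CPM for each member tested (x axis, genomic order), with the SE of the edgeR fit as bars and 1 symbol per line, and open triangles for lower bounds where no cytoplasmic read was found. PCDHAC1 and PCDHAC2 lie near 0, PCDHGA10 between 0.37 and 0.83, and PCDHGA11, PCDHGA12 and PCDHGC5 above 2 in all 5 lines.

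Alpha and gamma members are each annotated both as a first exon joined to the constant exons and as a single-exon transcript. Of their 94 transcripts, 50 had 4 or 5 exons and are called joined here, 37 had a single exon and 7 had other structures, and 37 genes had both main forms. Salmon divides reads in the shared constant exons, and reads in a first exon fit both forms, so the split of a member is an estimate. Over the nuclear libraries the joined share of PCDHGA5, PCDHGA7, PCDHGA12, PCDHGC3 and PCDHGC4 each ran from 0 to 100%. That of PCDHGA10 ran from 35.8 to 56.7%. In wild-type nuclei PCDHGA11 and PCDHGA12 had means of 0.674 and 0.555 TPM in the single-exon form and of 0 in the 4-exon form. In the gamma cluster, joined transcripts made up 25.8 ± 2.93% of the joined and single-exon TPM in wild-type nuclei (SD, n = 3) and 71.5 ± 4.26% in wild-type cytoplasm. The 3 nuclear libraries, at 22.7, 26.1 and 28.5%, lay far below the 3 cytoplasmic ones, at 67.9, 70.3 and 76.2%. In all lines together the nuclear range was 22.7 to 51.9% and the cytoplasmic range 62.4 to 76.2%, which did not overlap.

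The nuclear share of joined gamma transcripts had a higher mean in each knockout line. It was 30.6 ± 2.57% in the AGO1 knockout, 34.6 ± 4.57% in the AGO2 knockout, 49.8 ± 2.01% in the AGO1/2 knockout and 44.1 ± 5.00% in the AGO1/2/3 knockout. All 3 libraries of the AGO2, the double and the triple knockout, at 29.7, 35.2 and 38.8%, at 48.0, 51.9 and 49.5% and at 38.6, 48.2 and 45.6%, were above all 3 of the wild type, and an exact permutation test of 3 against 3 libraries cannot give a two-sided p under 0.1. The AGO1 knockout, at 33.4, 30.3 and 28.2%, overlapped the wild type. In the alpha cluster the nuclear share was 52.9 ± 1.47% in the wild type, 56.8 ± 3.84% in the AGO1 knockout, which overlapped it, and 62.6 ± 3.97% in the AGO2, 71.2 ± 6.72% in the double and 69.3 ± 3.06% in the triple knockout, all 3 without overlap with the wild type. In cytoplasm the group means were 76.8 to 81.4% for alpha and 66.5 to 71.5% for gamma. The levels of MALAT1 and GAPDH, which are known for their place in the cell, moved with these shares in nuclei. MALAT1, a nuclear long non-coding RNA, was at 2690 to 3490 TPM in wild-type nuclei and at 1240 to 1430 and 1200 to 1480 TPM in those of the double and triple knockouts. GAPDH, a glycolytic enzyme mRNA abundant in cytoplasm, was at 1070 to 1380 TPM in wild-type nuclei and at 2480 to 2770 and 1830 to 2140 TPM in those lines. The part of these differences in the shares was not tested.

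**Figure D3:**
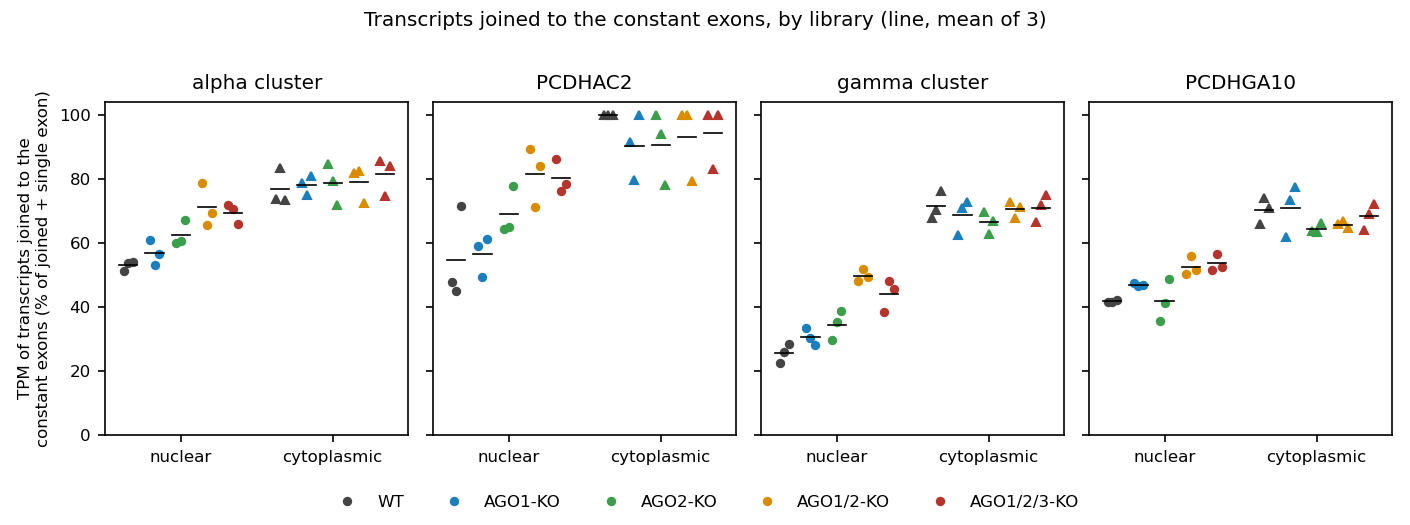
Share of joined transcripts in the joined and single-exon TPM (percent, y axis) for the alpha cluster, PCDHAC2, the gamma cluster and PCDHGA10, with 1 point per library by line and fraction and a bar at the mean of 3 libraries. For the gamma cluster the nuclear libraries lie between 22.7 and 51.9% and the cytoplasmic ones between 62.4 and 76.2%.

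Each knockout line was compared with the wild type within a fraction, to find which clustered protocadherins changed when Argonaute proteins were lost. The 4 comparisons of a fraction share the wild-type libraries, and fewer cells of a type and less RNA per cell cannot be told apart in bulk samples. In nuclei 26 of 53 members were tested among 18919 genes, and in cytoplasm 20 among 17605. Of all genes tested in nuclei, 32.9% were called higher in the double and 29.1% in the triple knockout. The share of all genes called higher in both was not counted. Of the 26 members tested in nuclei, 7 rose in both the double and the triple knockout. These were the alpha gene PCDHAC2, the beta genes PCDHB9, PCDHB13 and PCDHB14 and the gamma genes PCDHGA9, PCDHGA10 and PCDHGB7. The limit named for the fractions holds here too, since PCDHB9 reached the read level of the filter in the 6 nuclear libraries of these lines and in no other, so that it could be tested only if it was higher there. Without PCDHB9, 6 members rose in both. MALAT1 and GAPDH also differed between nuclei of the wild type and of these lines, as given above. The part of that difference in the nuclear calls was not tested.

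The nuclear AGO1/2 knockout gave 9 called members of 26 (34.6%), 7 higher and 2 lower, against 67.6% of all genes called and 32.9% called higher. The AGO1/2/3 knockout gave 8 (30.8%), 7 higher and 1 lower, against 58.6% and 29.1%. The AGO2 knockout gave 4 (15.4%), 1 higher and 3 lower, against 40.2% and, for lower calls, 19.9%. The AGO1 knockout gave 3 (11.5%), all lower, against 29.9% and, for lower calls, 15.6%. In each line the share of members called was below that of all genes, a gap that was not tested and that comes with low counts. The median log2 fold change of the members tested, in the order AGO1, AGO2, double and triple knockout, was -0.40, -0.32, -0.07 and -0.01, against -0.03, -0.02, -0.06 and -0.03 over all genes. The split by direction was another on log2(TPM + 0.1) with limma, a change of unit, scaling and test together. There, where the median of all genes moved to -0.25, -0.25, -0.12 and -0.25, 0 members were higher and 3 lower in the AGO1 knockout, 0 and 7 in the AGO2, 3 and 2 in the AGO1/2 and 4 and 1 in the AGO1/2/3 knockout. Of the 7 called members that rose in both of the last lines, PCDHB14, PCDHGA9 and PCDHGA10 passed that test in both too.

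The gamma members PCDHGA9, PCDHGA10 and PCDHGB7 rose in nuclei of the double and the triple knockout. PCDHGB6, whose gene lies between PCDHGA9 and PCDHGA10, was tested and not called (0.39, adjusted p = 0.419, in the AGO1/2 and 0.97, adjusted p = 0.0515, in the AGO1/2/3 knockout). In wild-type nuclei PCDHGA9 was at 0.458, 0.502 and 1.12 CPM in passages 27, 28 and 29, in the AGO1/2 knockout at 2.33, 1.90 and 2.95 CPM and in the AGO1/2/3 knockout at 2.93, 2.43 and 2.75 CPM. Both knockout groups lay above the wild type without overlap, with log2 fold changes of 1.81 (SE 0.267, adjusted p = 2.34e-05) and 1.99 (SE 0.267, adjusted p = 1.32e-05). PCDHGA10 was at 15.7, 13.3 and 16.9 CPM in the wild type, at 21.4, 20.7 and 23.3 CPM in the AGO1/2 and at 23.7, 26.5 and 22.3 CPM in the AGO1/2/3 knockout, and here too the groups did not overlap (0.51, SE 0.0976, adjusted p = 0.000266, and 0.66, SE 0.0978, adjusted p = 3.42e-05). PCDHGB7 was at 3.77, 3.93 and 3.77 CPM in the wild type, at 5.74, 4.27 and 5.88 CPM in the AGO1/2 knockout and at 5.64, 6.22 and 5.64 CPM in the AGO1/2/3 knockout, again without overlap (0.47, SE 0.124, adjusted p = 0.00349, and 0.61, SE 0.124, adjusted p = 0.000632). In the AGO2 knockout PCDHGB7 fell, at 2.64, 2.68 and 2.45 CPM (-0.56, SE 0.132, adjusted p = 0.00348), a call that ended with counts scaled by transcript length (-0.32, adjusted p = 0.074). All of these calls held with each library left out. With protein-coding transcripts alone, the calls of PCDHGA10 and PCDHGB7 in the AGO1/2 knockout ended (0.22, adjusted p = 0.0701, and 0.18, adjusted p = 0.259).

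Of the beta genes, PCDHB13 and PCDHB14 reached the filter's read level in all 15 nuclear libraries and rose in the lines lacking both AGO1 and AGO2, and PCDHB9 was called higher there, having passed the filter through these lines alone. PCDHB14 was at 0.739, 0.711 and 1.21 CPM in the wild type, at 1.99, 1.45 and 1.74 CPM in the AGO1/2 knockout and at 1.88, 1.65 and 1.70 CPM in the AGO1/2/3 knockout, all 6 above the wild type (0.97, SE 0.209, adjusted p = 0.000749, and 0.98, SE 0.211, adjusted p = 0.000921). PCDHB13 was at 0.845, 1.13 and 1.30 CPM in the wild type, at 1.46, 1.5 and 2.05 CPM in the AGO1/2 and at 2.31, 1.96 and 2.27 CPM in the AGO1/2/3 knockout, without overlap. Its log2 fold change was 0.62 (SE 0.238, adjusted p = 0.0302) in the AGO1/2 knockout, a call that ended without wild-type passage 27 (0.49, adjusted p = 0.109) or without AGO1/2 passage 11 (0.45, adjusted p = 0.124), and 1.01 (SE 0.236, adjusted p = 0.0019) in the AGO1/2/3 knockout. PCDHB9 was at 0, 0.251 and 0.180 CPM in the wild type, at 0.582, 0.570 and 0.512 CPM in the AGO1/2 and at 0.642, 0.601 and 0.810 CPM in the AGO1/2/3 knockout (2.0, SE 0.512, adjusted p = 0.00287, and 2.30, SE 0.506, adjusted p = 0.00114). The wild-type value of PCDHB9 rests on a mean of 3.45 estimated reads per library, and with counts scaled by transcript length both calls ended (1.1, adjusted p = 0.196, and 1.43, adjusted p = 0.106). With protein-coding transcripts alone, the call of PCDHB13 in the AGO1/2 knockout ended (0.33, adjusted p = 0.287).

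PCDHAC2 rose and PCDHAC1 fell in nuclei of the AGO1/2 knockout. PCDHAC1 was at 3.45, 3.18 and 4.22 CPM in the wild type and at 1.95, 1.59 and 1.87 CPM in the AGO1/2 knockout, without overlap (-1.0, SE 0.163, adjusted p = 6.44e-05). In the AGO1 knockout PCDHAC1 fell as well, to 1.95, 2.42 and 1.66 CPM (-0.84, SE 0.167, adjusted p = 0.00166). PCDHAC2 was at 7.53, 9.33 and 10.4 CPM in the wild type and at 10.7, 10.7 and 12.1 CPM in the AGO1/2 knockout (0.30, SE 0.101, adjusted p = 0.0159), a call that ended without AGO1/2 passage 11 (0.25, adjusted p = 0.0563). On TPM the direction of PCDHAC2 in this comparison turned, with means of 1.85 against 1.89 TPM, and the wild-type mean includes the short transcript in passage 28. With protein-coding transcripts alone PCDHAC2 was called in neither the double nor the triple knockout (0.02, adjusted p = 0.902, and 0.18, adjusted p = 0.184). PCDHAC2 rose in the AGO2 knockout, to 11.8, 12.2 and 12.2 CPM (0.41, SE 0.102, adjusted p = 0.00477, but 0.38, adjusted p = 0.164, with counts scaled by transcript length), and in the AGO1/2/3 knockout, to 12.4, 12.4 and 11.5 CPM (0.41, SE 0.102, adjusted p = 0.00258).

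**Figure D4:**
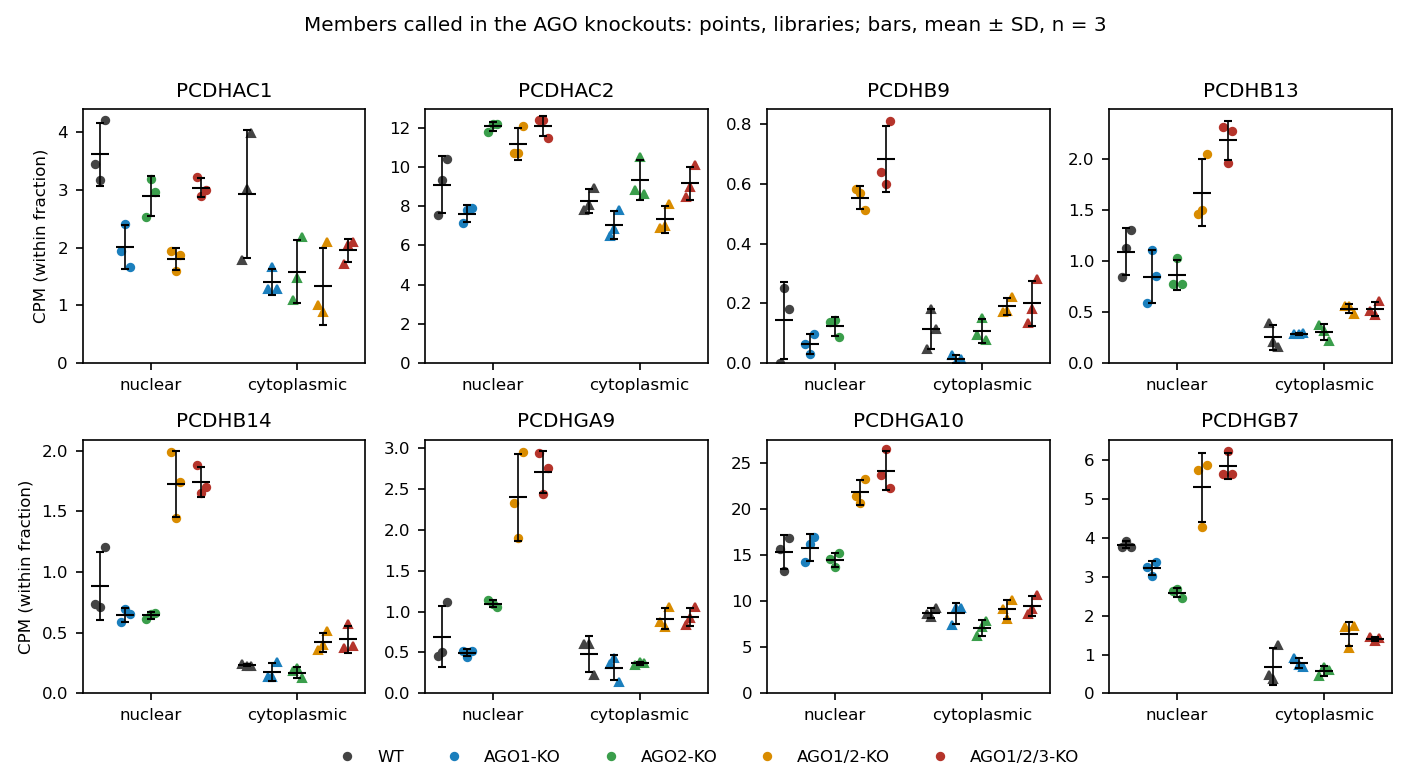
CPM (y axis) of PCDHAC1, PCDHAC2, PCDHB9, PCDHB13, PCDHB14, PCDHGA9, PCDHGA10 and PCDHGB7 in each library by line and fraction, with the mean ± SD of 3 libraries. In nuclei, the double and triple knockout libraries of PCDHGA9 lie between 1.90 and 2.95 CPM and those of the wild type between 0.458 and 1.12 CPM.

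Calls of lower members in nuclei concerned genes at a mean under 1 CPM, apart from PCDHAC1 and PCDHGB7. PCDHGB4 reached the filter's read level in 3 nuclear libraries of the wild type, 3 of the AGO1 and 2 of the AGO1/2 knockout. It did so in 0 of the AGO2 and 0 of the AGO1/2/3 knockout. PCDHA10 did so in 2 of the wild type, 1 of the AGO1/2, 3 of the AGO1/2/3 and 0 of the AGO1 knockout. Both genes thus passed through lines other than those where they were called lower, so the filter favoured these calls. In the AGO1 knockout PCDHA10 was at 0.0650, 0.0318 and 0.0652 CPM against 0.387, 0.167 and 0.359 CPM in the wild type (-2.44, SE 0.626, adjusted p = 0.00879), and PCDHGA8 at 0.130, 0.382 and 0.0979 CPM against 1.06, 0.586 and 0.764 CPM (-1.97, SE 0.434, adjusted p = 0.00341). Neither pair overlapped, and both calls held with each library left out, though that of PCDHA10 ended with counts scaled by transcript length (-1.71, adjusted p = 0.0855). In the AGO2 knockout PCDHGB4 fell (-1.92, SE 0.525, adjusted p = 0.00916), and PCDHGC4 fell (-1.51, SE 0.441, adjusted p = 0.0133), a call that ended without wild-type passage 29 or AGO2 passage 8 or 9, with log2 fold changes of -1.37 to -1.08 and adjusted p of 0.0508 to 0.0752. PCDHGA5 in the AGO1/2 knockout was at 0.403, 0.309 and 0.512 CPM against 0.493, 0.753 and 1.26 CPM in the wild type, which overlapped (-0.99, SE 0.369, adjusted p = 0.0269), and the call ended without wild-type passage 29 or AGO1/2 passage 9 or 10 (-0.97 to -0.55, adjusted p 0.0626 to 0.212). PCDHGB4 in the AGO1/2/3 knockout fell (-1.37, SE 0.483, adjusted p = 0.0235), a call that ended without wild-type passage 27 or 29 or AGO1/2/3 passage 11 or 12 (-1.37 to -1.06, adjusted p 0.0529 to 0.0947).

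In cytoplasm the double and triple knockouts gave more called members than the single ones. The AGO1/2 knockout gave 7 of 20 (35%), 6 higher and 1 lower, against 49.2% of all genes called and 23.9% called higher. The AGO1/2/3 knockout gave 5 (25.0%), all higher, against 38.7% and 18.6%. The AGO1 knockout gave 1 (5.00%), lower, against 12.4% and, for lower calls, 8.13%. The AGO2 knockout gave 0 by edgeR and 0 by DESeq2, with 4 members at an unadjusted p under 0.05 (PCDHAC1, PCDHGA6, PCDHGA10 and PCDHGA11), against 16.1% of all genes called. Medians over the members tested were -0.34, -0.18, 0.05 and 0.14 in the same order of lines, against -0.01, 0, -0.01 and -0.01 over all genes. On log2(TPM + 0.1), where the median of all genes moved to -0.14, -0.21, -0.36 and -0.23, the split was 0 higher and 2 lower, 0 and 4, 0 and 3, and 1 and 1. Which members passed thus differed between these fits, which differ in unit, scaling and test together, and PCDHGB7 in the AGO1/2/3 knockout was the one member called higher there. The group means of all 13 cytoplasmic calls kept their direction on TPM.

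PCDHB13 gave the cytoplasmic call that held with each library left out in both lines. It was at 0.390, 0.202 and 0.161 CPM in the wild type, at 0.557, 0.559 and 0.485 CPM in the AGO1/2 and at 0.511, 0.472 and 0.607 CPM in the AGO1/2/3 knockout, above all wild-type libraries (1.09, SE 0.293, adjusted p = 0.00639, and 1.08, SE 0.292, adjusted p = 0.00868). PCDHGA6 in the AGO1/2 knockout, at 0.186, 0.191 and 0.393 CPM against 0.0731, 0.0674 and 0.0688 CPM (1.86, SE 0.454, adjusted p = 0.00339), also kept its call. Both genes had few reads in the wild type. PCDHGA6 reached the filter's read level in 0 cytoplasmic libraries of the wild type and 0 of the AGO1 knockout. It did so in 3 of the AGO2, 3 of the AGO1/2 and 2 of the AGO1/2/3 knockout, so it passed through knockout lines alone. The gamma genes PCDHGA9 and PCDHGB7, which rose in nuclei, were called higher in cytoplasm too. PCDHGA9 was at 0.609, 0.606 and 0.229 CPM in the wild type, at 0.871, 0.809 and 1.06 CPM in the AGO1/2 knockout (0.93, adjusted p = 0.0380) and at 0.834, 0.917 and 1.05 CPM in the AGO1/2/3 knockout (0.96, adjusted p = 0.0400). PCDHGB7 was at 0.463, 0.359 and 1.24 CPM in the wild type and at 1.70, 1.16 and 1.72 CPM in the AGO1/2 knockout, which overlapped (1.15, adjusted p = 0.0112), and at 1.44, 1.34 and 1.42 CPM in the AGO1/2/3 knockout, which did not (1.02, adjusted p = 0.0270).

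The other cytoplasmic calls ended when a single library was left out. Without wild-type passage 29 or AGO1/2 passage 9, 10 or 11, PCDHGA9 in the AGO1/2 knockout gave 0.59 to 1.0 (adjusted p 0.0525 to 0.135), and without wild-type passage 29 or AGO1/2/3 passage 11, 12 or 14 it gave 0.62 to 1.05 in that knockout (adjusted p 0.0567 to 0.127). PCDHGB7 gave 0.84 to 0.94 without wild-type passage 27 or 28 in the AGO1/2 knockout (adjusted p 0.0511 to 0.0521), and 0.71 to 1.02 without these or AGO1/2/3 passage 11 or 14 in the AGO1/2/3 knockout (adjusted p 0.0597 to 0.116). PCDHB14 was called at 0.86 and 0.94 (adjusted p = 0.0363 and 0.0279) and fell short at 0.69 to 0.90 without wild-type passage 27, 28 or 29 or AGO1/2 passage 10 or 11 (adjusted p 0.0561 to 0.124), and at 0.72 to 0.98 without the same wild-type passages or AGO1/2/3 passage 12 (adjusted p 0.0542 to 0.121). These 3 genes kept their direction in every one of these fits. PCDHGA6 in the AGO1/2/3 knockout (1.33, adjusted p = 0.0373) gave 1.13 to 1.36 without wild-type passage 27, 28 or 29 or AGO1/2/3 passage 11 or 12 (adjusted p 0.0752 to 0.115). PCDHB10 reached the filter's read level in 4 cytoplasmic libraries, all of the double and triple knockouts, so that it could be tested only if it was higher there, and 5 members were called higher in the AGO1/2 knockout without it. Its call there (1.41, adjusted p = 0.0217) gave 1.06 to 1.48 without wild-type passage 27 or 28 or AGO1/2 passage 11 (adjusted p 0.0502 to 0.0951). PCDHAC1 fell in the AGO1/2 knockout, at 1.01, 0.882 and 2.10 CPM against 1.78, 3.01 and 3.99 CPM, which overlapped (-1.13, SE 0.340, adjusted p = 0.0126), and gave -0.95 to -0.84 without wild-type passage 29 or AGO1/2 passage 9 or 10 (adjusted p 0.0592 to 0.0616). PCDHB9 in the AGO1 knockout (-2.92, adjusted p = 0.0174) rested on 3 reads against 15, a ratio of 0.118 with a 95% counting interval of 0.0219 to 0.417, and gave -2.88 to -2.43 without wild-type passage 28 or AGO1 passage 7 or 8 (adjusted p 0.0515 to 0.0741).

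The 2 lines lacking both AGO1 and AGO2 called many of the same members, but as they were compared with the same wild-type libraries this is no independent support. In nuclei 7 members were shared, 77.8% of the 9 called in the double and 87.5% of the 8 called in the triple knockout, all in the same direction. In cytoplasm 5 were shared, 71.4% of 7 and 100% of 5. Of all genes, 67.6% and 58.6% were called in nuclei of these lines, and 49.2% and 38.7% in cytoplasm. The share of all genes called in both lines was not counted, so these overlaps describe the members only. Whether a knockout changed a member differently in nuclei and in cytoplasm was tested as an interaction over 20104 genes. None of 30 members was called by edgeR for the AGO1 or the AGO2 knockout, where 2 and 3 had an unadjusted p under 0.05 and 0.662% and 5.76% of all genes were called. For the AGO1/2 knockout 2 were called, PCDHAC2 and PCDHGA6, against 36.5% of all genes. For the AGO1/2/3 knockout 1 was called, PCDHGA10, against 22.7%. For the other members, a call in 1 fraction and none in the other does not show a difference between the fractions.

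Genes known to act with the clustered protocadherins were read from lists named by function. Among 24 regulators of the clusters, which comprise CTCF, cohesin and its loaders, DNA methylation enzymes and chromatin silencers, nuclear calls numbered 6 (5 higher), 14 (9 higher), 15 (10 higher) and 14 (9 higher) in the same order of lines. All 24 were tested, and these are 25.0, 58.3, 62.5 and 58.3% of them, against 29.9, 40.2, 67.6 and 58.6% of all genes. In cytoplasm they numbered 1 (1 higher), 2 (1 higher), 20 (5 higher) and 12 (3 higher), which are 4.17, 8.33, 83.3 and 50.0%, against 12.4, 16.1, 49.2 and 38.7% of all genes. These shares were not tested against each other. CTCF, the factor that binds the cluster promoters, rose in nuclei from 94.2 to 147 CPM in the AGO1/2 knockout (0.65, SE 0.0694, adjusted p = 9.34e-07) but was lower in its cytoplasm (-0.37, adjusted p = 0.00277). UHRF1, which guides maintenance DNA methylation, gave the largest nuclear change of the list in both lines (0.77 and 0.52, adjusted p = 9.54e-06 and 0.000541). SMC3, a cohesin subunit, fell in cytoplasm of both lines (-1.14 and -0.84, adjusted p = 7.9e-09 and 2.06e-07), and TET1, which oxidises methylated DNA, rose there (0.94 and 0.85, adjusted p = 9.82e-06 and 3.89e-05). The medians of the list were 0.12 and 0.10 in nuclei and -0.33 and -0.11 in cytoplasm of these lines, against -0.06, -0.03, -0.01 and -0.01 over all genes.

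Of 18 partners and processing enzymes, 9, 10, 16 and 17 were called in nuclei and 4, 2, 10 and 8 in cytoplasm, in the same order of lines. All 18 were tested, which gives 50.0, 55.6, 88.9 and 94.4% in nuclei, against 29.9, 40.2, 67.6 and 58.6% of all genes, and 22.2, 11.1, 55.6 and 44.4% in cytoplasm, against 12.4, 16.1, 49.2 and 38.7%. FYN, a kinase that binds protocadherins, fell in nuclei from 12.8 to 1.22 CPM in the AGO1/2 knockout and to 1.87 CPM in the AGO1/2/3 knockout (-3.37 and -2.76, adjusted p = 3e-07 and 2.5e-06), and fell in cytoplasm (-2.95 and -2.87). Subunits of gamma-secretase, which cleaves protocadherins, rose in nuclei, with PSENEN at 1.22 and 0.95, APH1A at 0.93 and 0.73 and NCSTN at 0.88 and 0.98. Of 12 non-clustered protocadherins 3 were tested. PCDH7 fell in nuclei of the double and triple knockouts (-2.97 and -1.40, adjusted p = 7.62e-11 and 1.12e-07), and PCDH1, which lies near the clusters, rose there (0.81 and 0.95, adjusted p = 0.0031 and 0.00123). PCDH19, at 0.0491 to 0.246 TPM in nuclear libraries, was called lower there too. In nuclei of the AGO1 knockout both PCDH19 and PCDH1 were called lower. Of 5 pseudogenes within the clusters 1 was tested, PCDHGB8P, which fell in nuclei of the AGO2 knockout (-0.59). Among 31 neighbouring genes within 500 kb, 27 were tested in nuclei, where 12, 4, 20 and 13 were called, and 26 in cytoplasm, where 3, 1, 10 and 4 were called. The shares of neighbours called were 44.4, 14.8, 74.1 and 48.1% in nuclei and 11.5, 3.85, 38.5 and 15.4% in cytoplasm, beside the same shares of all genes. Neuron markers moved with the lines, and their summed level in nuclei was 37.8 to 48.0 TPM in the wild type and 6.4 to 9.35 and 12.1 to 14.4 TPM in the double and triple knockouts. SYT1, at 6.21 to 39.1 TPM in nuclear libraries, made up most of that sum, STMN2 was at 0 in every nuclear library and RBFOX3 reached at most 0.213 TPM. The part of these differences in the members' results was not tested.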

How the data were processed

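Nuclear and cytoplasmic RNA of 5 HCT116 lines, 3 libraries each, was sequenced as ribosome-depleted, stranded, paired-end libraries. The authors aligned reads to hg38 with STAR and deposited Salmon tables that give, for each transcript, an estimated count and TPM, the latter being relative to transcript length and library. Their processing notes name STAR 2.5.3a and Salmon 0.11.0, and whether the quantification used strand is not given in the sources used here, where 15 genes on the opposite strand lie within the clusters. The 8 eCLIP samples were not used here.

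Transcripts were matched by identifier without version to GENCODE 44, 195887 of 200401, and the unmatched ones held 2.23 to 4.01% of the reads. Estimated counts were summed per gene, rounded and fitted with edgeR 4.0.16 in R 4.3.3 (TMM, filterByExpr with a minimum count of 10, quasi-likelihood test, Benjamini-Hochberg adjustment, call at 0.05 or less), with all 5 lines of a fraction in a fit and all 30 libraries in the fit of fractions and interactions. TPM were summed per gene. The scripts were tested on simulated data. The named genes are mainly called members and, from the lists, some of the called genes with the largest changes. Members, lists and tests were chosen with earlier results of these data known. Intervals cover counting error only. No 2 libraries were alike enough to be 1 library deposited again. Same-passage fractions deviated together in the wild type (r = 0.156, 0.148 and 0.402). Alternatives were DESeq2 1.42.0, limma 3.58.1 on log2(TPM + 0.1) or log2(TPM + 1), other filters, scalings and transcript sets, each library left out and a passage block.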

Additional observations from a re-analysis of the deposited data

Results flagged for a closer look

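The change between knockout and wild type differed between the fractions for 3 clustered protocadherin genes, by edgeR's interaction test over 20104 genes. The log2 change of PCDHAC2 in the AGO1/2 knockout was 0.40 higher in nuclei than in cytoplasm (SE 0.148, adjusted p = 0.0363). The call ended by DESeq2 (0.31, adjusted p = 0.102), with protein-coding transcripts alone (0.12, adjusted p = 0.586) and in 5 of 12 fits with a library left out, those without nuclear wild-type passage 27 or AGO1/2 passage 11, or cytoplasmic wild-type passage 29 or AGO1/2 passage 9 or 10 (0.28 to 0.37, adjusted p 0.0729 to 0.146). For PCDHGA6 in the same knockout the difference was -2.05 (SE 0.612, adjusted p = 0.0102), and the call ended without cytoplasmic AGO1/2 passage 11 (-1.58, adjusted p = 0.0502) and on log2(TPM + 0.1) by limma (-0.24, adjusted p = 0.401). For PCDHGA10 in the AGO1/2/3 knockout it was 0.45 (SE 0.158, adjusted p = 0.0391). That call ended with protein-coding transcripts alone (0.30, adjusted p = 0.179) and in 8 of 12 fits with a library left out (0.37 to 0.48, adjusted p 0.0509 to 0.126), namely those without wild-type passage 27 or 28 or AGO1/2/3 passage 11 or 12 in nuclei, or wild-type passage 27 or 29 or AGO1/2/3 passage 11 or 12 in cytoplasm.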

How the results depend on the processing

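No fitted log2 fold change of a named member changed sign under the alternative fits run, while the group means of PCDHAC2 in nuclei of the AGO1/2 knockout turned on TPM (1.85 against 1.89 TPM). Of 725 comparisons of a named member's value with an alternative, 582 kept the call and 143 lost it, 64 of them when a library was left out. By setting, 21 of 55 were lost on log2(TPM + 0.1), 22 of 37 on log2(TPM + 1), 11 of 37 with counts scaled by transcript length, 9 of 31 with the pair of groups compared alone, 7 of 55 with protein-coding transcripts alone, 5 of 55 by DESeq2, 3 of 37 with no filter on low counts, 1 of 15 with a mean count of at least 50, 0 of 37 with size factors by relative log expression and 0 of 18 with a replicate block. Counts of called members that moved by over 1.5 times are given in the order AGO1, AGO2, double and triple knockout, and the cause was not tested. By DESeq2, cytoplasmic counts were 2 (AGO1) and 3 (triple), and the interaction count 2 (triple). On log2(TPM + 0.1), nuclear counts were 7 (AGO2), 5 (double) and 5 (triple), cytoplasmic counts 2, 4, 3 and 2, and interaction counts 3 (AGO2), 5 (double) and 3 (triple). On log2(TPM + 1), nuclear counts were 5 (double) and 5 (triple), and cytoplasmic counts 2, 2, 3 and 2. Without a filter on low counts they were 7 (nuclear AGO2) and 2 (cytoplasmic AGO1). With a mean count of at least 50, nuclear counts were 1, 2, 4 and 4, and cytoplasmic counts 0 (AGO1), 2 (double) and 1 (triple), since fewer members were tested. With counts scaled by transcript length, cytoplasmic counts were 2 (AGO1), 1 (AGO2) and 2 (triple). With the pair of groups compared alone, they were 0 (AGO1), 2 (double) and 1 (triple).

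With a library left out, counts ran from 3 to 5 (nuclear AGO1), and in cytoplasm from 0 to 3, 0 to 1, 4 to 6 and 2 to 5. Interaction counts ran from 0 to 2 (AGO2), 1 to 3 (double) and 0 to 2 (triple). Without wild-type passage 29, nuclear counts were 3, 5, 8 and 8 and cytoplasmic counts 2, 0, 4 and 3. With the passage as a replicate block, 19, 18, 20, 23 and 25 members were called between fractions in the wild type and the 4 knockouts, and 0, 0, 4 and 1 as interactions. The block rests on a shared passage number, and of the 5 lines the wild type alone had a correlation over 0.1 in each of its 3 pairs. Within a fraction, no paired analysis was possible because the wild type shares no passage number with a knockout line.

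The number of expressed members depends on the level set. At 1 TPM it was 2 in wild-type nuclei, and 1, 0, 0 and 1 in cytoplasm of the knockouts. At 0.1 TPM it was 13, 8, 11, 12 and 13 in nuclei (wild type first), and 4 (AGO1), 4 (double) and 5 (triple) in cytoplasm. At 10 estimated reads it was 15, 15, 16, 21 and 21 in nuclei and 7, 8, 8, 11 and 11 in cytoplasm. Depth limits these numbers, as most members had few reads.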
